A study of Mus musculus with 4 samples.

Results

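A set of 7 sarcomere genes, of 27998 in the table, was followed through every myocyte class of the embryonic mouse heart: the myosin heavy chains Myh6 and Myh7, the troponin T genes Tnnt1 and Tnnt2, the troponin I genes Tnni1 and Tnni3, and troponin C, Tnnc1. They were chosen by name, and all 7 were present in each of the 4 libraries. The libraries came from wild-type CD1 hearts at E16.5, with no transgene or treatment in any of them. One 10x 3′ library was made for each dissected region, with the SAN region as Zone I and the AVN/His region as Zone II. Zone III, the BB/PF region, was split into a left and a right ventricular library. The number of hearts behind a library was not given in the labels. Of 22805 barcodes, 21035 had at least 500 genes and were kept. The median cell held 8479 to 9272 UMIs, each a molecule counted once, and any pair of libraries shared 29 to 49 barcodes, or 0.62% to 0.961% of the smaller one.

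Force in a heart cell comes from myosin heads pulling on actin, and the troponin complex sets when they may do so. Troponin C binds calcium, troponin I holds the filament off between beats, and troponin T ties the complex to tropomyosin. Most of these parts come in an isoform of the fetal heart or of slow skeletal muscle and an isoform of the adult heart. In the mouse ventricle the slow myosin encoded by Myh7 gives way after birth to the fast myosin encoded by Myh6, while the slow skeletal troponin I encoded by Tnni1 gives way to the cardiac form encoded by Tnni3, and the atria use Myh6 from early on. For each of 3 pairs, the fetal isoform share is the percentage of the pair's UMIs that came from Myh7, Tnni1 or Tnnt1. The name is kept for all 3 pairs, but Tnnt1 is the slow skeletal troponin T, and its share is not read as a fetal state. The mRNA's 3′ end may be captured unequally for 2 genes, so a share is compared between classes only and is not a ratio of molecules.

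The 2 myosin genes are neighbours. In mm10, Myh6 lies on chr14:54941921-54966927 and Myh7 on chr14:54970684-54994626, both on the minus strand and 3756 bases apart with no coding gene between them. Each carries a microRNA inside the gene, overlapping 0 exons of the host. The pair is shown because the hosts had opposite chamber patterns while their microRNAs share 1 seed, bases 2 to 8, set in capitals below. The 22-base mature sequences, from RefSeq on GRCm38.p6, differ at 3 positions.
mmu-miR-208a-3p, within Myh6: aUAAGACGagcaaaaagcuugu
mmu-miR-208b-3p, within Myh7: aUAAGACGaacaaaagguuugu
Neither microRNA was measured here, since the libraries read polyadenylated RNA.

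The troponin genes are paired along the genome too, a T gene beside an I gene. Tnni1 (chr1:135779434-135810989) and Tnnt2 (chr1:135836354-135852260) lie on the plus strand 25364 bases apart, with Lad1 between them. Tnnt1 (chr7:4504570-4516382) and Tnni3 (chr7:4518305-4524229) lie on the minus strand 1922 bases apart. Each of these neighbour pairs thus holds 1 slow skeletal and 1 cardiac isoform. Tnnc1 stands alone on chr14:31208312-31211729, plus strand. On the other strand, Gm49130 overlaps Myh6, Nisch overlaps Tnnc1, and Mhrt, Gm29015, Gm31251 and the coding gene Gm17428 overlap Myh7. Dnaaf3 overlaps Tnni3 on the same strand. Reads in the shared stretches are therefore uncertain.

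The 250 bases before a RefSeq start site are printed for both myosin genes and for Tnnt1. The myosin levels moved in opposite directions between chambers, and Tnnt1 was high in 2 small Tbx3+ classes. In Myh6 and Tnnt1 this site and its window lie inside the gene span given above. Distances are counted from the RefSeq site and not from the end of that span. Capitals mark the motifs searched on both strands, MCAT (CATTCC, or GGAATG on the other strand) and the TATA box (TATAAA). An MCAT match occurred in 12.6% and a TATA match in 12.4% of all 32851 RefSeq promoter windows of this length on GRCm38.p6. The CArG box, also searched, matched in 1.47% of all windows and in none of these 3.
Myh6, chr14:54966608-54966857, minus strand: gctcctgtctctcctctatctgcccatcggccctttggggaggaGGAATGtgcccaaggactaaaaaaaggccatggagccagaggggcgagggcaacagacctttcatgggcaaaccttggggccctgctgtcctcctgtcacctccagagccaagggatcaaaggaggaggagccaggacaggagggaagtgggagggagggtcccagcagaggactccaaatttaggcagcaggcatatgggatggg
Myh7, chr14:54994627-54994876, minus strand: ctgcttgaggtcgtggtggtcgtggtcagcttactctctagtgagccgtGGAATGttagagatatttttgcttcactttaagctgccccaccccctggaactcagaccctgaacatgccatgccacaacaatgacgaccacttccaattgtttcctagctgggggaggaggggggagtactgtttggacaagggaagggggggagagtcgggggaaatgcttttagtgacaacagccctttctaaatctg
Tnnt1, chr7:4515976-4516225, minus strand: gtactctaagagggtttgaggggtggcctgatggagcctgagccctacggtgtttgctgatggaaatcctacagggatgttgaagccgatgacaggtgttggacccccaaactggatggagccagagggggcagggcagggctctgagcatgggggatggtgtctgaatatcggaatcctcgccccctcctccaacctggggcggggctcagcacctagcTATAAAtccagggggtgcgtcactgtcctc
Both myosin windows held 1 MCAT match, 206 bases before the start site in Myh6 and 201 in Myh7, and the Tnnt1 window held 1 TATA match 30 bases before it. The MCAT match was not particular to the myosin genes. Windows of Tnnt2 and Tnnc1, not printed, held 1 each, 27 and 58 bases before the start site, and those of Tnni1 and Tnni3 held 0. Myh7 has 2 windows in RefSeq, of which the one at the gene's outer end is shown. A match is a run of letters only, and binding was not measured.

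Cells were assigned to classes by clustering without any sarcomere gene, so the 7 genes had no part in the clusters. Names came from marker genes: SAN-like cells raised all 9 SAN markers, among them Shox2 at 7.16 UMIs per 10000 against 0.19 in atrial-like cells of the same library, and PF-like cells carried Irx3 at 0.527 to 0.739 against 0.0487 to 0.0821 in ventricular-like cells. In the AVN/His region 2 groups of cells raised 6 of 8 AVN/His markers, including Tbx3, the repressor that keeps nodal cells from becoming working muscle. In each cluster of these cells the leading 10 genes held as many markers of another class as AVN/His markers, or more. In 1 atrial-side cluster these were SAN markers, 2 against 1, and in 1 ventricular-side cluster PF markers, 2 against 2. The 2 groups are therefore called by the gene: Tbx3+ atrial-side cells (Myl7, the atrial light chain, 309.6 per 10000) and Tbx3+ ventricular-side cells (Myl2, the ventricular light chain, 96.9 per 10000). In all, 102 SAN-like, 73 Tbx3+ atrial-side, 65 Tbx3+ ventricular-side, 196 PF-like, 2750 atrial-like and 9319 ventricular-like cells gave 11 sums, 1 for each class in each library. Cells with markers of other types were left out of every class; 172 myocytes of the SAN region stayed unnamed. PF-like cells of the left ventricle and Tbx3+ ventricular-side cells still held 2.56 and 3.84 UMIs per 10000 of the 8 macrophage markers, from 2 of the 8 genes in each, with C1qa at 0 in the latter. Working myocytes of the same libraries held 0.0264 and 0.0683, and PF-like cells of the right ventricle held 0.725 against 0.0456. SAN-like cells held 2.72 of the 8 fibroblast markers, with UMIs of 7 of them, against 1.16 in atrial-like cells of the SAN region. The part of these in the results was not tested.

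UMIs of the 7 genes were also found outside myocytes. Macrophages, which make no sarcomere, held Myh6, Myh7, Tnnt2, Tnni1, Tnni3 and Tnnc1 at 5.38% to 17.1% of the level in working myocytes of their library. For Tnnt1 the range was 20.7% to 84.3%, at 0.189 to 0.616 UMIs per 10000, so a Tnnt1 level under 1 is close to that background. Fibroblast-like cells held Tnnt1 at 0.290 to 0.948 per 10000, and the other genes at 4.49% to 10.6% of the working level. Endothelial-like cells held those other genes at 2.52% to 4.48%. For them, taking off the macrophage level, as is done below, therefore removes more than an endothelial level would. Each level below is a sum of UMIs over a class per 10000 UMIs, with an exact Poisson 95% interval. The interval covers counting error only, since each region had 1 library and nothing says how far a second library would differ.

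Myosin heavy chain followed the chamber in working and conduction cells alike. The Myh6 level was 26.8 (26.6 to 27.0) in atrial-like cells of the SAN region and 29.0 (27.9 to 30.2) in those of the AVN/His region. SAN-like cells stood at 29.7 (28.6 to 30.9) and Tbx3+ atrial-side cells at 35.8 (34.5 to 37.1). All 4 atrial-chamber sums thus lay together, with the Tbx3+ cells highest. On the ventricular side Myh6 was 3.87, 2.44 and 4.54 in ventricular-like cells of the AVN/His, left and right libraries, 3.54, 6.17 and 5.25 in PF-like cells of the same libraries, and 4.04 in Tbx3+ ventricular-side cells. No ventricular-chamber sum came near an atrial one, and the left ventricle had the lowest working level and the highest Purkinje level.

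Myh7 ran the other way. Its level was 34.6, 35.9 and 38.8 in ventricular-like cells of the AVN/His, left and right libraries. PF-like cells of those libraries stood at 30.3 (28.8 to 32.0), 40.5 (39.0 to 42.1) and 50.4 (48.8 to 52.1), and Tbx3+ ventricular-side cells at 32.7 (31.3 to 34.2). The 3 Purkinje sums did not overlap one another, and the right ventricle gave the highest Myh7 level of all 11. Atrial-like cells held 3.62 (3.55 to 3.70) in the SAN region and 5.28 (4.78 to 5.80) in the AVN/His region, SAN-like cells 5.71 (5.22 to 6.23) and Tbx3+ atrial-side cells 7.47 (6.88 to 8.09). Both conduction classes of the atrial chamber therefore sat above the working cells beside them. Mhrt, the noncoding transcript antisense to Myh7, was at 0.0825 to 0.885 per 10000 in ventricular-like cells and 0.106 to 1.45 in PF-like cells, highest in the right ventricle in both; the strand setting of the counting was not given in the sources used here.

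**Figure D1:**
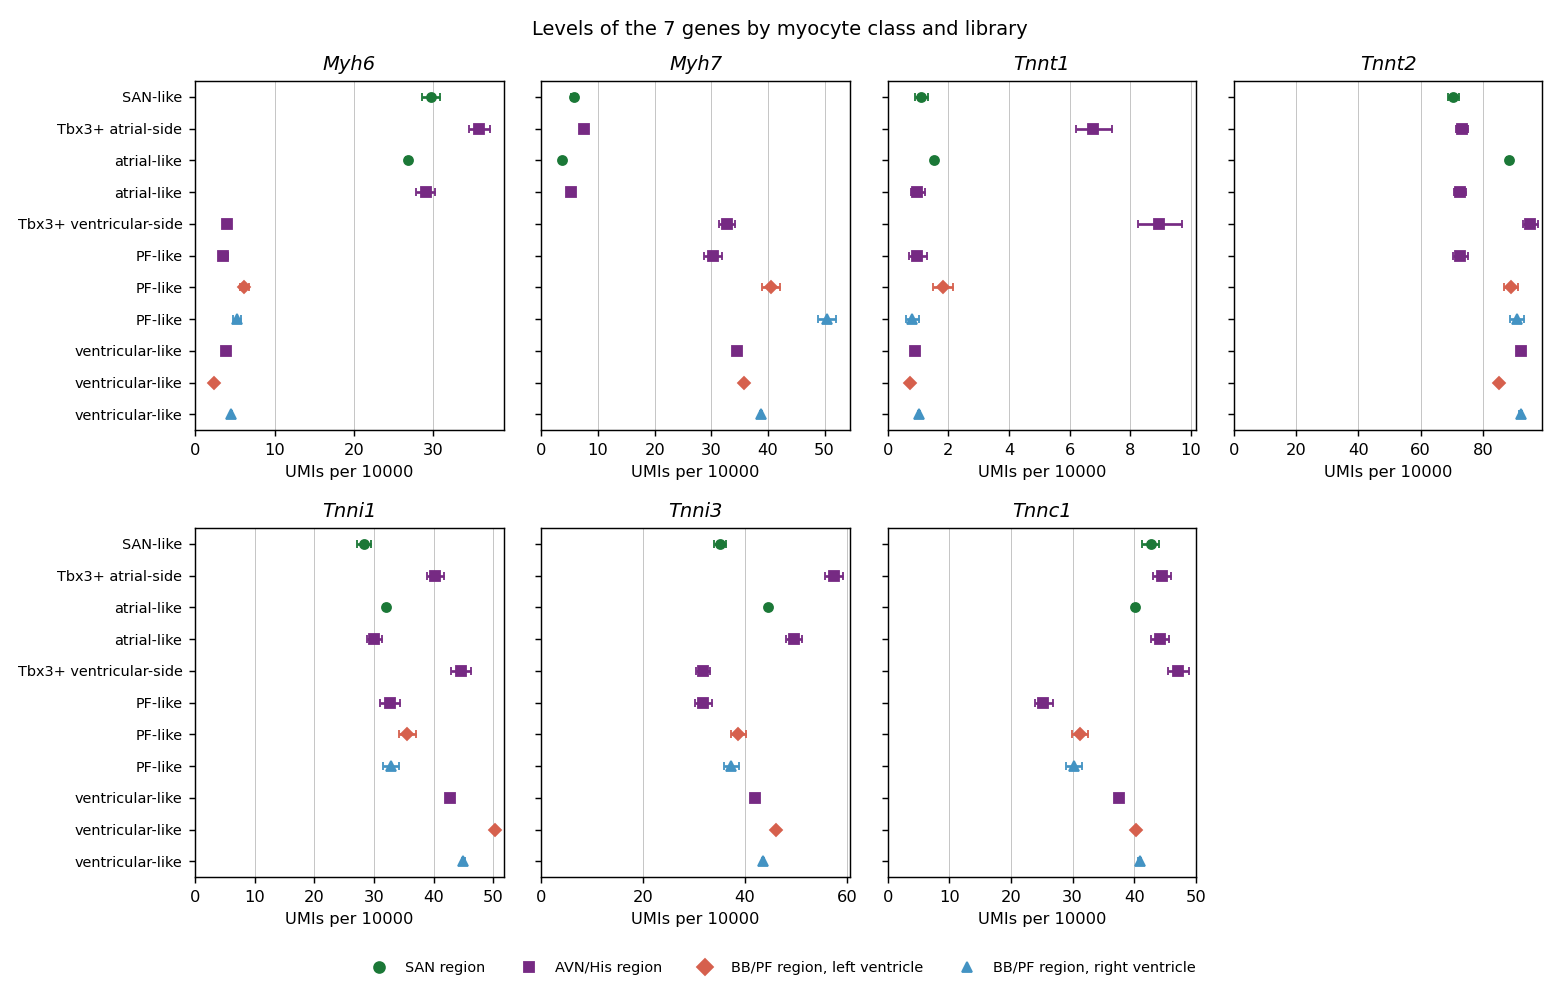
Level of each gene (UMIs per 10000 UMIs of the class; horizontal axis, separate scale per gene, starting at 0) in the 11 sums, with markers and colours for the 4 libraries and bars for exact Poisson 95% intervals. Myh6 and Myh7 separate the atrial-chamber from the ventricular-chamber sums, and Tnnt1 stands out at 6.78 and 8.95 in the Tbx3+ sums.

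As a share of the pair, Myh7 made up 11.9% (11.7 to 12.1, exact binomial interval) of myosin UMIs in atrial-like cells of the SAN region and 15.4% (14.0 to 16.8) in those of the AVN/His region. The share was 16.1% (14.8 to 17.5) in SAN-like and 17.3% (16.0 to 18.6) in Tbx3+ atrial-side cells. On the ventricular side it was 89.9%, 93.6% and 89.5% in ventricular-like cells of the AVN/His, left and right libraries, 89.5%, 86.8% and 90.6% in PF-like cells, and 89.0% in Tbx3+ ventricular-side cells. Beyond counting error, ventricular-like cells of the left ventricle lay above every other sum, PF-like cells there lay below all working sums of the ventricular chamber, ventricular-like cells of the AVN/His region lay above those of the right ventricle, and atrial-like cells of the SAN region lay below the other atrial-chamber sums. The remaining neighbours in the order had overlapping intervals. With the macrophage level of the library taken off both genes, the share in the AVN/His region fell to 9.92% in atrial-like and 13.1% in Tbx3+ atrial-side cells. Macrophages of that library had a Myh7 share of 88.6%.

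The split held cell by cell. Among cells with at least 10 myosin UMIs, Myh7 was the larger part in at least 97.4% of the cells of each ventricular-chamber sum. It was the larger part in 1.08% and 3.28% of atrial-like cells, 3.09% of SAN-like cells and 8.70% of Tbx3+ atrial-side cells. The spread of the Myh7 share over cells, taken at 10 UMIs each, was a standard deviation of 22.5 percentage points in Tbx3+ atrial-side cells, against 12.4 that drawing 10 UMIs would give. In ventricular-like cells of the left ventricle the 2 values were 9.04 and 7.70, so cells there differed little beyond sampling. Within classes, the clusters of atrial-like cells in the SAN region ran from 9.25% to 14.9%, and the highest of them had Nppb, a natriuretic peptide gene, among its leading 10 genes.

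The test of atrial against ventricular working myocytes used the 5 sums (2 atrial-like, 3 ventricular-like). Of 12892 genes tested by edgeR (quasi-likelihood, p-values adjusted by Benjamini-Hochberg), 2801, or 21.7%, passed 0.05, among them 3 of the 7. Myh6 was higher in atrial-like cells by 2.76 on the log2 scale (SE 0.23, adjusted p = 0.000175, edgeR). Myh7 was lower, at -3.25 (SE 0.17, adjusted p = 1.69e-05, edgeR), and so was Tnni1, at -0.76 (SE 0.10, adjusted p = 0.00185, edgeR). Of the others, Tnnt2 stood at -0.34 (SE 0.12, adjusted p = 0.0684, edgeR), Tnnt1 at 0.39 (SE 0.21), Tnnc1 at -0.10 (SE 0.09) and Tnni3 at -0.09 (SE 0.09). Class and dissected region are partly the same thing in this comparison and cannot be told apart, and p-values measure only the spread between these libraries, which may be technical.

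**Figure D2:**
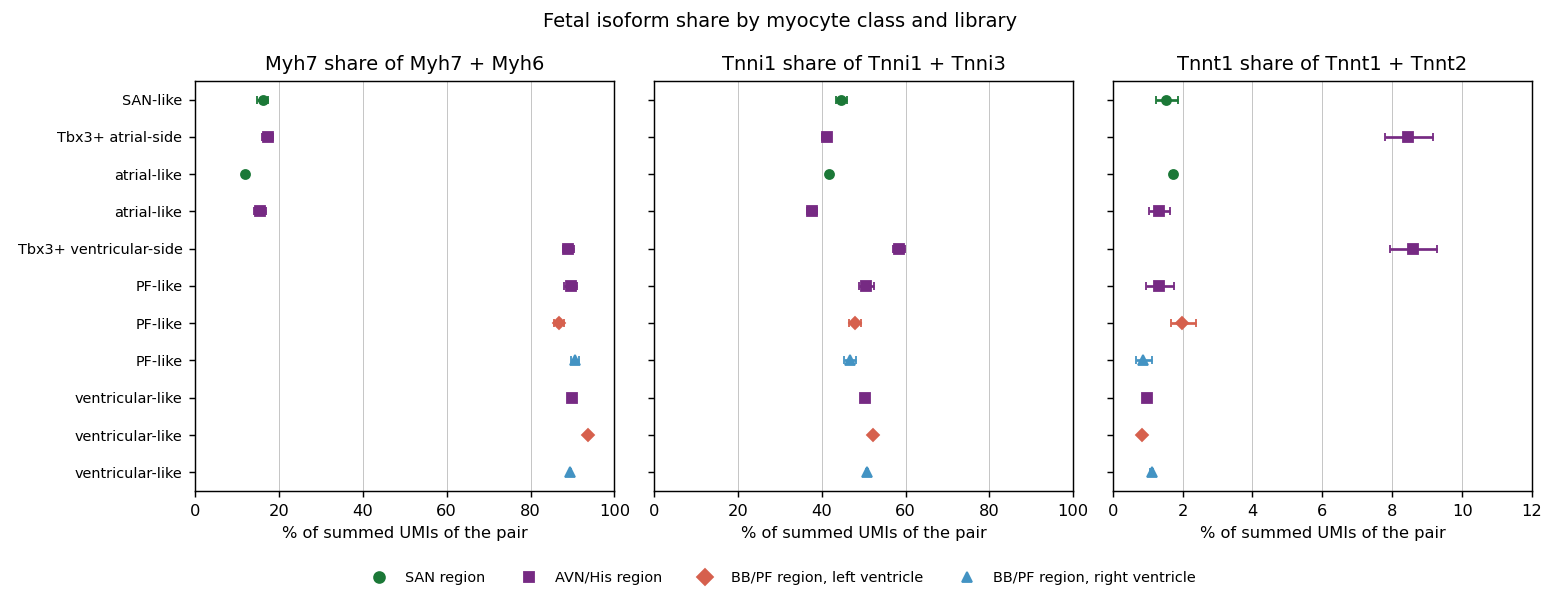
Fetal isoform share (percent of the pair's summed UMIs; the Tnnt1 panel has its own scale, to 12%) in the 11 sums, with exact binomial 95% intervals. Myh7 makes up 11.9% to 17.3% in the atrial chamber and 86.8% to 93.6% in the ventricular chamber, Tnni1 lies between 37.7% and 58.4%, and Tnnt1 exceeds 2.0% only in the Tbx3+ sums.

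Both troponin I genes were measured at high levels in every class, and the Tnni1 share differed far less between chambers than the Myh7 share. Tnni3, the cardiac form that protein kinase A acts on, was at 44.5 and 49.6 per 10000 in atrial-like cells of the SAN and AVN/His regions, and at 42.0, 46.1 and 43.5 in ventricular-like cells of the AVN/His, left and right libraries. It was highest in Tbx3+ atrial-side cells, at 57.5 (55.8 to 59.1), and low in SAN-like cells, at 35.1 (33.9 to 36.3), in PF-like cells of the AVN/His region, at 31.8, and in Tbx3+ ventricular-side cells, at 31.7. Working cells of both chambers thus held like levels of Tnni3, and the conduction classes spread to both sides of them.

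Tnni1 carried the chamber difference. Its level was 31.9 (31.7 to 32.1) and 30.02 (28.8 to 31.3) in atrial-like cells, and 42.7, 50.3 and 44.9 in ventricular-like cells of the AVN/His, left and right libraries. PF-like cells, at 32.6, 35.5 and 32.8, lay below ventricular-like cells in all 3 libraries and close to the atrial level. Tbx3+ cells held 40.3 (38.9 to 41.7) on the atrial side and 44.5 (42.9 to 46.2) on the ventricular side, while SAN-like cells had the lowest value, 28.3 (27.2 to 29.4), with an interval that overlapped that of atrial-like cells of the AVN/His region.

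The Tnni1 share was 41.8% and 37.7% in atrial-like cells and 50.4%, 52.2% and 50.8% in ventricular-like cells. SAN-like cells had 44.7% (43.3 to 46.0) against 41.8% (41.6 to 42.0) beside them, and Tbx3+ atrial-side cells 41.2% (40.1 to 42.3) against 37.7% (36.5 to 38.9). On the ventricular side the conduction classes parted. PF-like cells had 50.6%, 47.9% and 46.8% in the AVN/His, left and right libraries, and the 2 BB/PF values lay below the working cells beside them beyond counting error. Tbx3+ ventricular-side cells had the highest share of all, 58.4% (57.0 to 59.8). That share came from a low Tnni3 level, since their Tnni1 level was 1.04 times that of the ventricular-like cells beside them and their Tnni3 level 0.755 times.

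The Tnnt1 share of troponin T UMIs was higher in Tbx3+ cells of the AVN/His region than in any other sum. Tnnt2 was at 72.7 and 88.3 per 10000 in atrial-like cells of the AVN/His and SAN regions, 85.1 to 92.1 in ventricular-like cells and 95.3 (93.0 to 97.7) in Tbx3+ ventricular-side cells. Tnnt1, the troponin T of slow skeletal muscle, was at 0.731 to 1.04 in ventricular-like cells, 0.977 and 1.54 in atrial-like cells, 1.10 in SAN-like cells and 0.970, 1.82 and 0.808 in PF-like cells of the AVN/His, left and right libraries. In Tbx3+ cells it reached 6.78 (6.22 to 7.38) on the atrial side and 8.95 (8.24 to 9.71) on the ventricular side. These were 6.94 and 9.79 times the level in the working cells beside them.

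The Tnnt1 share was 8.46% (7.78 to 9.17) and 8.59% (7.93 to 9.28) in the 2 Tbx3+ classes and 0.852% to 2.0% in the other 9 sums. SAN-like cells, which also carry Tbx3 (1.83 per 10000, against 0.71 and 0.82 in the Tbx3+ classes), had 1.54% (1.25 to 1.87), within counting error of the 1.72% in the atrial-like cells beside them. After thinning each cell to 1500 UMIs, a Tnnt1 UMI was left in 41.1% and 47.7% of Tbx3+ cells (75.3% and 73.8% unthinned), in 14.7% of SAN-like cells, and in 6.58% to 24.4% of PF-like cells. Macrophages, with median depths of 5767 to 7106 UMIs against 10099 and 9636 in Tbx3+ cells, showed 3.92% to 9.09% after thinning and 10.1% to 22.7% before. Fibroblast-like cells of the SAN region showed 11.6% after thinning and 40.7% before, against 14.7% and 40.2% in SAN-like cells. Those of the AVN/His, left and right libraries showed 4.56%, 5.45% and 4.36% after thinning. The PF-like values of the AVN/His region and the right ventricle, 7.14% and 6.58%, lay within the macrophage range, while that of the left ventricle, 24.4%, lay above it.

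The Tnnt1 signal was concentrated in few cells. Of cells with at least 10 troponin T UMIs, 18 of 73 Tbx3+ atrial-side and 17 of 63 Tbx3+ ventricular-side cells took at least 10% of them from Tnnt1. These cells held 81.1% and 79.8% of the Tnnt1 UMIs of their classes. Elsewhere such cells were 0.0% to 4.76% of a sum, the most numerous being 106 of 2658 atrial-like cells of the SAN region. The highest share of a single cell was 41.9% among Tbx3+ atrial-side cells and 45.6% among atrial-like cells of the SAN region, so cells with as much Tnnt1 were not confined to the Tbx3+ classes.

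Both Tbx3+ classes had split into 2 sub-clusters, again without use of any sarcomere gene, and the split followed Tnnt1 in each. One atrial-side sub-cluster of 30 cells had a Tnnt1 share of 14.8% (13.5 to 16.2) and the other, of 43 cells, 3.31% (2.75 to 3.96). On the ventricular side the values were 14.0% (12.8 to 15.1) in 33 cells and 2.37% (1.87 to 2.97) in 32. The high sub-clusters of both chambers had Gal, which encodes the neuropeptide galanin, and Cdkn1c, an inhibitor of cell division, among their leading 10 genes beside Tnnt1 itself. Of these, Gal alone was absent from the leading 10 of both low sub-clusters. Cdkn1c was also among those of the low ventricular-side sub-cluster, and Tnnt1 among those of the low atrial-side one. The high atrial-side sub-cluster also had Fabp4, a gene of capillary endothelium. The 8 endothelial markers summed to 1.03 per 10000 in its class against 0.439 in atrial-like cells beside it. The low ventricular-side sub-cluster was led by Lyz2, a gene of macrophages. The part of either in the Tnnt1 values was not tested. In 2 clusters of ventricular-like cells, set apart from the Tbx3+ ventricular-side cells only at the second clustering, the share was 2.22% and 3.04%.

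The Myh7 and Tnni1 shares were higher in the high sub-clusters too. The Myh7 share was 24.3% (22.1 to 26.6) against 12.2% (10.8 to 13.7) on the atrial side and 94.2% (92.6 to 95.6) against 85.4% (83.4 to 87.2) on the ventricular side. The Tnni1 share was 45.2% against 38.4% and 63.0% against 54.3%. On the atrial side the higher Myh7 share went with a Myh7 level of 11.2 against 5.06 per 10000 and like Myh6 levels, 34.9 and 36.3. On the ventricular side it went with a lower Myh6 level, 1.74 against 6.31, and a Myh7 level of 28.5 against 36.9. All 3 shares thus leaned the same way, with 1 library behind them and no test.

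**Figure D3:**
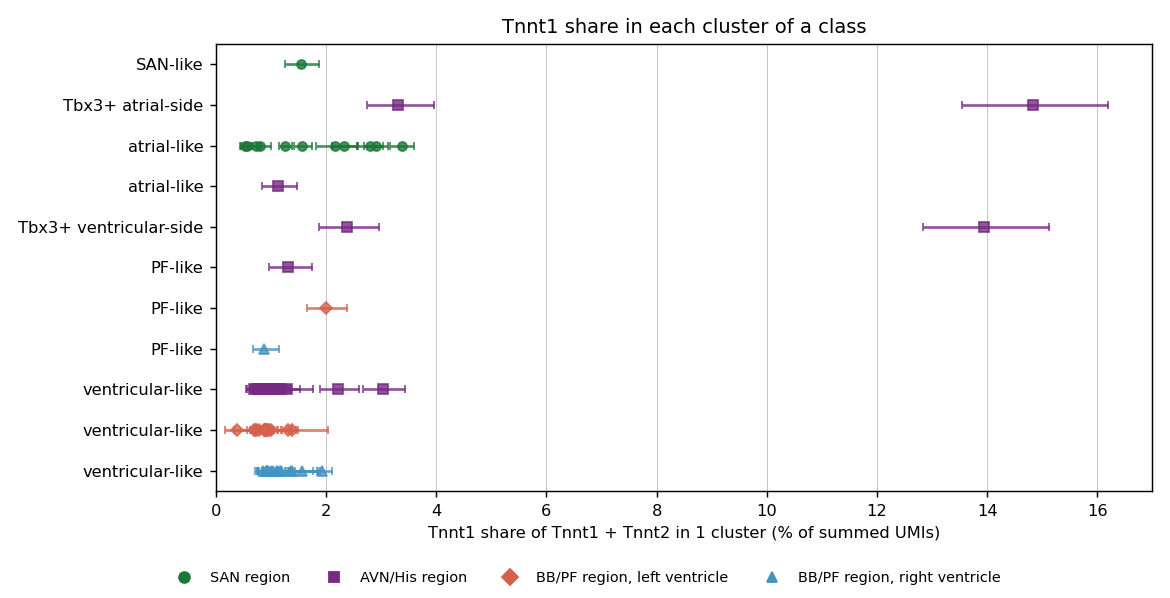
Tnnt1 share of troponin T UMIs (percent) in each cluster of a class, 1 point per cluster and library with at least 20 cells, with exact binomial 95% intervals. A sub-cluster at 14.8% and one at 14.0% stand apart in the Tbx3+ classes, and every other point lies at 3.38% or below.

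Tnnc1, the calcium sensor, has no fetal counterpart among the genes here. Its level was 40.1 and 44.2 per 10000 in atrial-like cells and 37.6, 40.2 and 40.9 in ventricular-like cells, with SAN-like cells at 42.7 and Tbx3+ cells at 44.5 and 47.1. PF-like cells were lowest, at 25.3 (23.9 to 26.7), 31.1 (29.8 to 32.5) and 30.2 (29.0 to 31.5) in the AVN/His, left and right libraries, below all other sums. The PF-like level was 0.673, 0.774 and 0.739 times that of the ventricular-like cells beside them.

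Conduction cells were then compared with the working cells of their own library. Over the 4 pairs (SAN-like, Tbx3+ atrial-side and 2 PF-like, each against its working class, with the library as a block), 554 of 7777 genes, or 7.12%, passed in edgeR's quasi-likelihood test, and 0 of the 7 did. At an unadjusted p under 0.05 there were 3 of the 7, and 1946 of all 7777 genes. These 3 were Myh7 at 0.31 (SE 0.11, adjusted p = 0.149, edgeR), Tnnc1 at -0.30 (SE 0.12, adjusted p = 0.176, edgeR) and Tnni3 at -0.27 (SE 0.11, adjusted p = 0.18, edgeR). DESeq2 also called 0 of the 7. Myh7 was higher in the conduction class in all 4 of these pairs, by 1.58, 1.42, 1.13 and 1.30 times. Outside these pairs it was lower, at 0.95 times the ventricular-like level in Tbx3+ ventricular-side cells and 0.88 times in PF-like cells of the AVN/His region. With Tbx3+ ventricular-side cells and ventricular-like cells as the AVN/His pair, an alternative chosen after the data were seen, Tnni3 passed at -0.54 (adjusted p = 0.0351, edgeR). Tnnt1 gave 0.67 with an SE of 0.51, its 4 ratios being 0.713, 6.94, 2.49 and 0.777. With the AVN/His pair left out the fitted value was -0.016, so its direction rested on that library.

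The comparison called nodal against atrial set SAN-like and Tbx3+ atrial-side cells against atrial-like cells, a test of 2 pairs with 1 residual degree of freedom. On simulated data, with a spread set in advance and not taken from these sums, this fit called 43 of 100 genes changed 2-fold. Smaller changes could thus be missed, and the share for the real sums may differ. In edgeR's quasi-likelihood test 215 of 7268 genes, or 2.96%, passed, and 0 of the 7 did. Myh7 (0.45, SE 0.16) and Tnnt2 (-0.28, SE 0.10) had an unadjusted p under 0.05 in edgeR, with adjusted p = 0.218 and 0.224. So did 1190 of all 7268 genes by unadjusted p, and DESeq2 called 0 of the 7 as well. The 2 pairs lay farthest apart in Tnnt1, with a log2 ratio to atrial-like cells of -0.49 in SAN-like and 2.80 in Tbx3+ atrial-side cells, which the fit averaged to 0.99 (SE 0.65, adjusted p = 0.519, edgeR). Without the filter on low counts, Tnnt1 passed at 0.93 (adjusted p = 0.00381, edgeR).

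**Figure D4:**
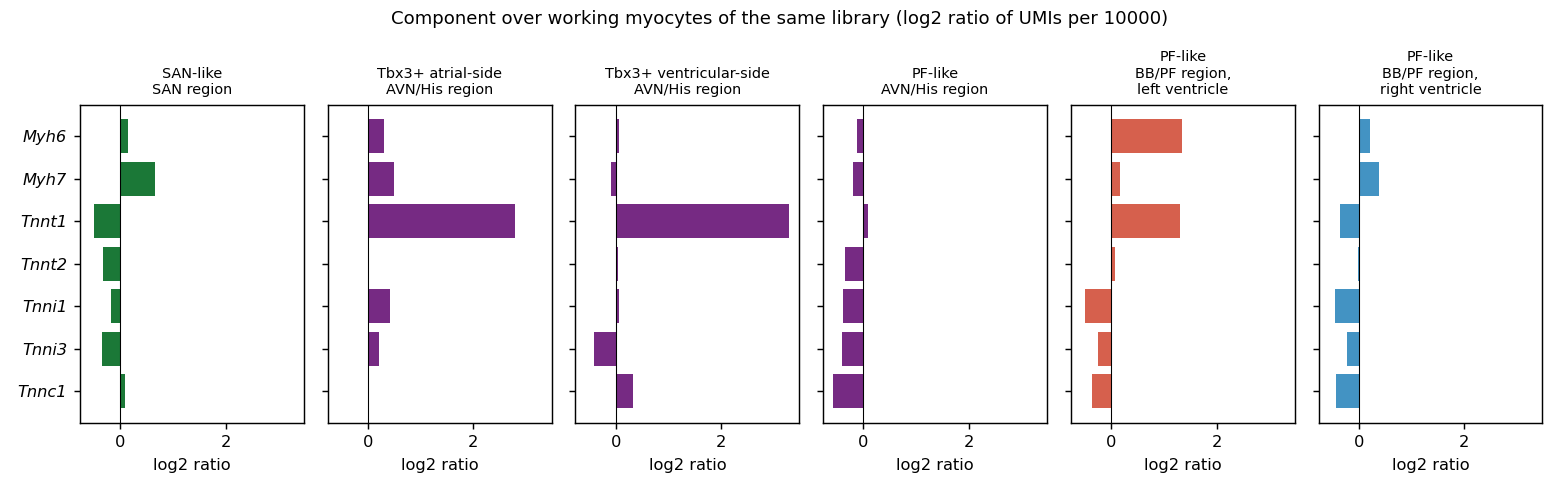
Log2 ratio of the level of each gene in a conduction class to that in the working class of the same library, for 6 pairs (bars from 0; 1 library each, no error bars). Tnnt1 rises to 2.80 and 3.29 in the Tbx3+ pairs, and Tnni1, Tnni3 and Tnnc1 lie below 0 in all 3 PF-like pairs.

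Purkinje cells carried less Tnni1 and Tnnc1 than the ventricular muscle around them. Over both BB/PF pairs 2481 of 11778 genes, or 21.1%, passed in edgeR's quasi-likelihood test, and 3 of the 7 did. Tnni1 fell by 0.68 on the log2 scale (SE 0.21, adjusted p = 0.00893, edgeR) and Tnnc1 fell by 0.61 (SE 0.21, adjusted p = 0.0192, edgeR). Tnni3 stood at -0.44 (SE 0.21, adjusted p = 0.128, edgeR), and Tnnt2 at -0.18 (SE 0.25). Ratios of plain levels were milder than the fit, which rescales the sums: 0.706 and 0.731 for Tnni1 and 0.774 and 0.739 for Tnnc1 in the left and right ventricle. The PF-like cells of the AVN/His region, not part of the test, gave 0.764 and 0.673.

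Myh6 was the member that rose in Purkinje cells, by 0.57 (SE 0.15, adjusted p = 0.0013, edgeR), but its pairs were unequal. The level was 2.53 times that of ventricular-like cells in the left ventricle, 1.16 times in the right and 0.916 times in the AVN/His region. With that pair added to the fit, an alternative chosen after the data were seen, the value was 0.29 (adjusted p = 0.254, edgeR), and DESeq2 gave 0.60 (adjusted p = 0.0563). Myh7 stood at 0.07 (SE 0.21) and Tnnt1 at 0.36 (SE 0.15, adjusted p = 0.0786, edgeR), the latter with a left-ventricular ratio of 2.49 and a right-ventricular one of 0.777. This fit has 1 residual degree of freedom and gave each gene the spread common to all genes of its level, so a p-value takes no account of how far a gene's own 2 pairs lie apart.

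The nodal and Purkinje contrasts were compared directly in 1 fit over the 8 sums. In edgeR's quasi-likelihood test 236 of 7777 genes, or 3.03%, differed, and 0 of the 7 did. Tnni1 came nearest, lower in the Purkinje contrast by 0.60 (SE 0.21, adjusted p = 0.187, edgeR), followed by Tnnc1 at -0.45 (SE 0.16, adjusted p = 0.217, edgeR). These 2 had an unadjusted p under 0.05, and the count of all genes below it was not taken.

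**Figure D5:**
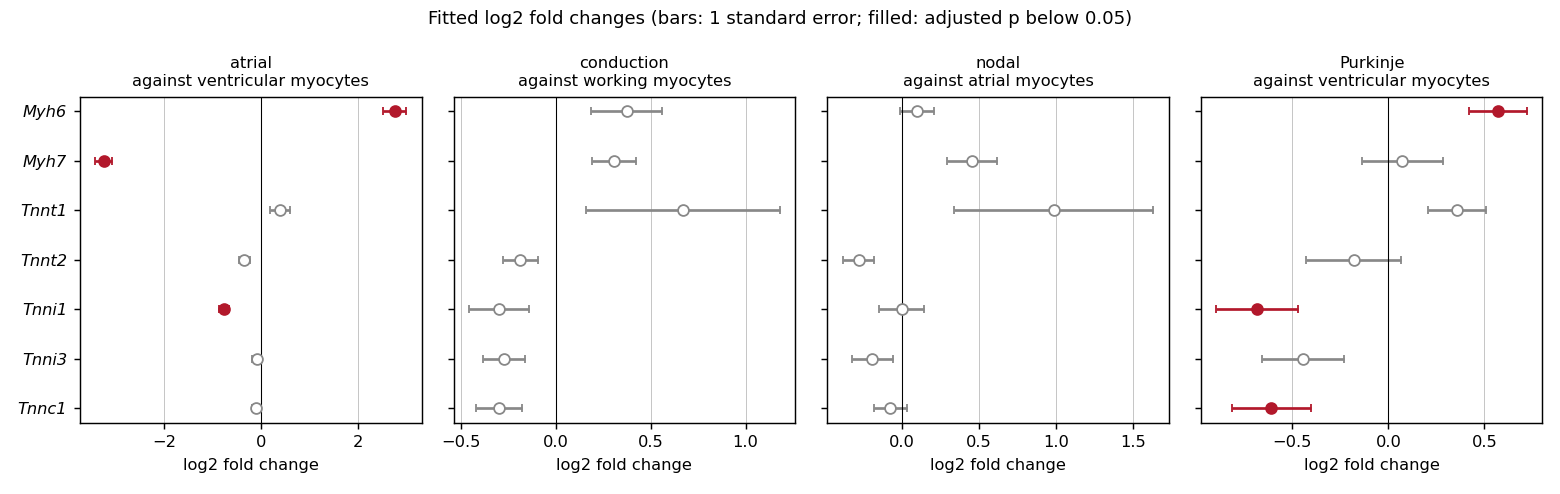
Fitted log2 fold change of the 7 genes in 4 comparisons (points, with bars of 1 standard error; filled red points passed an adjusted p of 0.05 in edgeR; separate horizontal scales). Myh6, Myh7 and Tnni1 pass between chambers, no gene passes in the conduction and nodal comparisons, and Myh6, Tnni1 and Tnnc1 pass in Purkinje cells.

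Other sarcomere genes, 54 in a fixed list, gave the frame for these changes. Between atrial and ventricular cells 12 of 47 tested were higher and 7 lower, where 21.7% of all genes passed (median 0.09 on the log2 scale, against 0.01 over all genes). The light chain Myl1 was at 5.93 and 3.35 per 10000 in atrial-like cells against 0.0908 to 0.108 in ventricular-like cells, and smooth muscle actin, Acta2, at 2.60 and 3.0 against 10.8 to 12.4. In Purkinje cells 7 of 45 were higher and 6 lower, where 21.1% of all genes passed (median -0.06, as over all genes). Myl1 rose there too, by 4.68 on the log2 scale (SE 0.15, 3.90 and 1.97 per 10000 against 0.101 and 0.0908), while skeletal actin, Acta1, fell by 1.87 (SE 0.24) and Lmod3, an actin filament nucleator, fell by 1.35 (SE 0.21). In the nodal comparison 0 of 41 were higher and 5 lower (2.96% of all genes passed), Acta1 among them at 0.0567 and 0.127 per 10000 against 0.724 and 2.13. In the conduction comparison 2 of 44 were higher, Tcap and Myh10, and 4 lower, where 7.12% of all genes passed.

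Of 13 transcription factors known to act on sarcomere genes, 5 of the 12 tested passed between chambers, where 21.7% of all genes did, but Hey2, Irx4, Nr2f1 and Nr2f2 had served to name the classes. The remaining one, Tbx5, was at 1.497 and 1.842 per 10000 in atrial-like cells against 0.0951 to 0.108 in ventricular-like cells. In Purkinje cells 2 of the 10 tested were higher and 2 lower, where 21.1% of all genes passed. Tbx5 rose by 1.88 (SE 0.27) and Nkx2-5 by 0.56 (SE 0.14), and Hey2 fell by 2.90 (SE 0.25) and Mef2c fell by 1.30 (SE 0.18). Hey2 was also a marker used to name ventricular-like cells. Any of these genes may have helped to form the clusters, which the 7 members did not. None of the 12 tested in the conduction and the 10 tested in the nodal comparison passed in edgeR.

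Working classes held 18.2% to 27.9% cycling cells, those with UMIs of at least 3 of 6 cell cycle genes, and the conduction classes 0.0% to 7.14%; leaving them out was an alternative chosen after the data were seen. Cycling ventricular-like cells had a lower Tnni1 share than the rest in all 3 libraries, 48.2% against 51.2%, 51.0% against 52.6% and 49.3% against 51.3%. In atrial-like cells of the SAN region they had a higher Tnnt1 share, 2.58% against 1.52%. The Purkinje values of Tnni1 and Tnnc1 passed with cycling cells left out as well.

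Across single cells of a class the Myh7 and Tnni1 shares were weakly related in some classes. Pearson's r was 0.41 and 0.42 in Tbx3+ atrial-side and ventricular-side cells (69 and 60 cells), 0.34 in PF-like cells of the left ventricle (77 cells) and -0.05 to 0.13 in the 4 large working sums; the points of a class share a library, and most rest on few UMIs. Over the 11 sums, the levels most like Myh6 among 2520 genes were those of Fras1 (r = 0.98), Spon1 and Cav1, and the levels most like Myh7 were those of Ddc (r = 0.97), Myl2 and Prkaca. Tnni1 was most like Tpi1, a glycolytic enzyme (r = 0.92), Tnnc1 most like Myo18b (r = 0.94) and Tnnt1 most like Tonsl (r = 0.93). Myh6 and Myh7 levels had an r of -0.93. Sums of 1 library share its depth and free RNA, so these values describe the libraries.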

How the data were processed

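The deposited files held UMI counts per gene and barcode, which the authors made with Cell Ranger on mm10; its version and the annotation were not given in the sources used here. Totals were 49328589 to 58029660 UMIs a library, and 0 value columns were left unused. Barcodes with at least 500 genes and 1000 UMIs were clustered (Python 3.11.15, scanpy 1.11.5, leidenalg 0.10.2, 2000 variable genes, 10 principal components) without the 7 members, the other sarcomere genes or the light chains Myl2, Myl3, Myl4 and Myl7, Ttn and Actn2. Clusters were named from marker lists; the naming rule and the resolutions (0.8 for all cells, 1.6 for myocytes, 0.8 again within mixed clusters) were chosen after clusters had been seen. Doublets were scored and kept, and leaving out scores over 0.2 was an alternative.

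Counts were summed per class and library for classes of at least 20 cells and tested with edgeR 4.0.16 (R 4.3.3, quasi-likelihood, TMM, low counts filtered, library as a block within libraries, Benjamini-Hochberg at 0.05). The sums of a library come from the same dissection, which is where the pairing comes from. Alternatives were DESeq2 1.42.0, no filter, no block, other cell filters and clusterings, and each library left out. Tested on simulated data with 100 genes changed 2-fold and 100 changed 4-fold, the fit called 75 and 100 of them between chambers (12892 genes), 81 and 94 in the conduction comparison (7777 genes), 43 and 87 in the nodal one (7268 genes) and 35 and 81 in the Purkinje one (11778 genes). The simulated spread was the same for every gene and was not taken from these sums, so these counts do not give the power of the real fits. All 7 members are named, with up to 3 called genes in each direction of the sarcomere list by adjusted p. Members and lists were chosen with earlier results of these data known. Intervals are at 95%.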

Additional observations from a re-analysis of the deposited data

Results flagged for a closer look

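Barcodes with fewer than 500 genes, which entered no comparison, held UMIs of the 7 genes that, summed, lay above the limit that a count of 0 allows (3 UMIs, or 0.00672 to 0.015 per 10000). Single genes did not all do so: in the left ventricle Tnnt1 had 0 UMIs and Myh6 had 3. The summed level was 3.644 per 10000 in 408 such barcodes of the SAN region, 4.385 in 356 of the AVN/His region, 3.619 in 352 of the left ventricle and 2.608 in 654 of the right ventricle. No myocyte class had sums from 4 or more libraries, so the test for a library standing apart was not run.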

How the results depend on the processing

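The atrial against ventricular values of Myh6, Myh7 and Tnni1 and the Purkinje values of Tnni1 and Tnnc1 kept their direction and passed under every alternative run for them. The count of genes passing moved more. Between chambers it was 2801 and became 1814 in DESeq2 and 484 to 3431 with a library left out, lowest without the SAN region (1788 without the right ventricle). In the conduction comparison 554 became 943 in DESeq2, 1040 without the filter, 310 without cycling cells, 1211 with the ventricular-side Tbx3+ cells, and 66 (without the left ventricle) to 661 with a library left out (126 without the right ventricle). In the nodal comparison 215 became 113 in DESeq2, 742 without the filter, 137 with all cells kept and 488 without cycling cells. In Purkinje cells 2481 became 1054 in DESeq2. Without the replicate block of the library, the pairing was lost and the counts were 260 in the conduction and 3 in the nodal comparison.

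Purkinje Myh6 no longer passed in DESeq2 (0.598), without the block (0.498) and with the third pair (0.291). Some members gained a call: Tnnt2 between chambers in DESeq2 (-0.349) and without the filter (-0.364), Tnnt1 between chambers without the AVN/His region, Tnnt1 in the nodal comparison without the filter (0.933), Tnni3 in the conduction comparison with the ventricular-side cells (-0.543), and in Purkinje cells Tnni3 in DESeq2 (-0.418) and with the third pair (-0.492) and Tnnt1 with all cells kept (0.406) and at 1.5 times the resolution (0.414). The gap in Tnnt1 share between Tbx3+ and other sums, 6.46 points, was 7.57 with 20 principal components and 7.35 with the macrophage level taken off. The value at 20 principal components rests on the atrial-side sum only, since no Tbx3+ ventricular-side class was named there. That class was also not named among cells with at least 1000 genes and 2000 UMIs. Directions turned for Tnnt1 between chambers (-0.0863 without the SAN region, 0.597 without the AVN/His region) and in the conduction comparison (-0.0159 without the AVN/His region, 1.14 without the SAN region), for nodal Myh6 without cycling cells (-0.0157), for nodal Tnni1 at 1.5 times the resolution (0.00343) and without the block (0.0137), and for Purkinje Myh7 without cycling cells (-0.0305) and with the third pair (-0.0765). The cause was not tested. The settings on cycling cells, the ventricular-side cells and the third pair were chosen after seeing the data. With 1 library left out, the nodal and Purkinje fits had no residual degrees of freedom and were not run. Each region had 1 library, and Tbx3+, SAN-like and PF-like sums rest on 42 to 102 cells.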

Other observations

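In the SAN region 174 cells, 5.42% of those in its myocyte clusters, were left unnamed, and 172 of them were kept. Their cluster raised 10 of 10 atrial markers, together with 3 of 9 SAN markers and 4 of 8 AVN/His markers. The Myh7 share of these cells was 16.6% (15.5 to 17.7), close to that of SAN-like cells, and their Tnni1 share was 45.0% (43.9 to 46.1). Their Tnnt1 share of 3.92% (3.51 to 4.36) lay above that of every named sum outside the Tbx3+ classes, and 1.74% of them were cycling.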
